A study of Homo sapiens with 4 samples.

Results

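The genes described here, most of which encode proteins of pre-mRNA splicing, were measured in Huh7, a human hepatoma cell line. They comprise 48 of the 19782 gene symbols in the deposited tables and were taken by their names: 24 symbols beginning with HNRNP, 12 SR protein genes (SRSF1 to SRSF12) and 12 genes of small nuclear ribonucleoproteins (snRNPs) whose symbols begin with SNRP and a letter from A to N. Huh7 cells at passage 3 were given an ISL1 expression lentivirus (ISL1 is a homeodomain transcription factor of the LIM class) or, as control, a blank lentivirus. Each group has 2 RNA-seq libraries, called here control 1, control 2, ISL1 1 and ISL1 2, and the first or second replicate number means the control and the ISL1 library with that number. The second library of the ISL1 group is titled with ISL2 and was placed here because the design names no treatment other than ISL1 and blank virus. All libraries are from 1 cell line, the labels name no promoter for the transgene, and they do not say whether the duplicates were separate cultures, so the spread between them may be technical.

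Heterogeneous nuclear ribonucleoproteins (hnRNPs) coat nascent transcripts and often keep splice sites or exons from being used. SR proteins, named for their stretches of arginine and serine, bind exonic enhancers and help to recruit the U1 snRNP and the U2AF factor to nearby splice sites. The snRNPs are the RNA and protein particles that build the spliceosome, and most of their shared proteins form the Sm ring around the small nuclear RNAs. Many SR and hnRNP genes limit their own level by splicing in a premature stop, which sends the transcript to nonsense-mediated decay.

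Levels are RPKM, the reads of a gene per kilobase of transcript, divided by the sequencing depth, as the authors scaled them. Differences are ISL1 minus control on the log2(RPKM + 1) scale and understate the change of low genes. The libraries held 29429964 to 37134267 reads, as recovered from the steps between low values, and a count of 0 allowed up to 0.0808 to 0.102 RPKM in a transcript of 1 kb (3 reads, counting error only). ISL1 itself was at 0.0454 RPKM in control 1 and 8.22 in ISL1 1; it was listed at 0 in control 2 and reached 1801 in ISL1 2. Of 10 hepatocyte and hepatoma markers, 9 or 10 were at 1 RPKM or more in each library. HNF4A, a liver transcription factor, had no read in control 1.

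Of the 48 symbols, 39 were in all 4 tables, and all 39 passed the filter of at least 1 RPKM in at least 2 libraries, among 11085 genes tested. A further 5 were in the tables of the first replicate number only and 4 in those of the second only. With 1 library per group in each replicate number, a comparison within a number has no replicate check. No member passed limma's pooled test of 2 against 2 libraries at an adjusted p of 0.05 (0 of 39), and none of the genes tested did (0%). No member had an unadjusted p under 0.05, where 15 of the genes tested had one. An exact permutation test of 2 against 2 cannot go below p = 0.333.

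Within the first replicate number 32 of the 39 members stood higher with ISL1, against 49.4% of all genes tested. Within the second, 29 of 39 did, against 54.6%. Higher in both were 22 of 39 members (56.4%), against 23.1% of all genes. Lower in both was none of the 39, against 19.1%. The median difference over the members was 0.33 in the first number and 0.20 in the second, where the median over all genes tested was -0.00211 and 0.06. With median-ratio scaling of the libraries the members' medians were 0.53 and -0.0133, and those of all genes tested 0.09 and -0.12. Relative to the median of all genes, the members' medians were 0.33 and 0.14 as deposited and 0.44 and 0.11 with that scaling. Most of these differences were small. On the log2(RPKM + 1) scale 3 members were at least 1.5-fold higher in the first number, HNRNPA3, HNRNPL and SNRPD2 (5.99% of all genes). At least 1.5-fold lower there was none (7.03%). In the second number 6 members were at least 1.5-fold higher on that scale, HNRNPH1, HNRNPH3, SRSF2, SRSF11, SNRPA1 and SNRPB2 (17.8%), and none was at least 1.5-fold lower (12.3%). By reads divided by depth, without the added 1 RPKM, HNRNPH2 and SRSF12 of the tested members were more than 1.5-fold lower in the first number. Their log2 ratios of ISL1 to control were -0.76 and -0.64. On that measure SNRPF also just reached 1.5-fold higher in the first number, with a log2 ratio of 0.5853. The share of all genes on that measure was not computed.

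The snRNP genes had medians of 0.42 in the first number and 0.03 in the second, and the hnRNP genes 0.34 and 0.11. The SR genes had 0.09 and 0.42 as deposited, and 0.28 and 0.21 with median-ratio scaling, which reverses their order. The direction of the hnRNP and snRNP medians in the second number depended on how the libraries were scaled. Median-ratio scaling moved the median of all genes tested by 0.09 in the first number and by -0.18 in the second, and gave medians of -0.0932 for the hnRNP and -0.18 for the snRNP genes in the second. With it, 35 members were higher in the first number (62.7% of all genes), 19 in the second (40.2%) and 17 in both (21.3%), and HNRNPH2 and SRSF8 were lower in both (18.4% of all genes). Of the SR genes 10 of 12 were higher in each number with that scaling. Relative to the median of all genes, the snRNP medians were 0.42 and -0.03 as deposited and 0.53 and -0.06 with that scaling. The hnRNP medians were 0.34 and 0.05 against 0.45 and 0.03, and the SR medians 0.10 and 0.37 against 0.19 and 0.33.

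**Figure D1:**
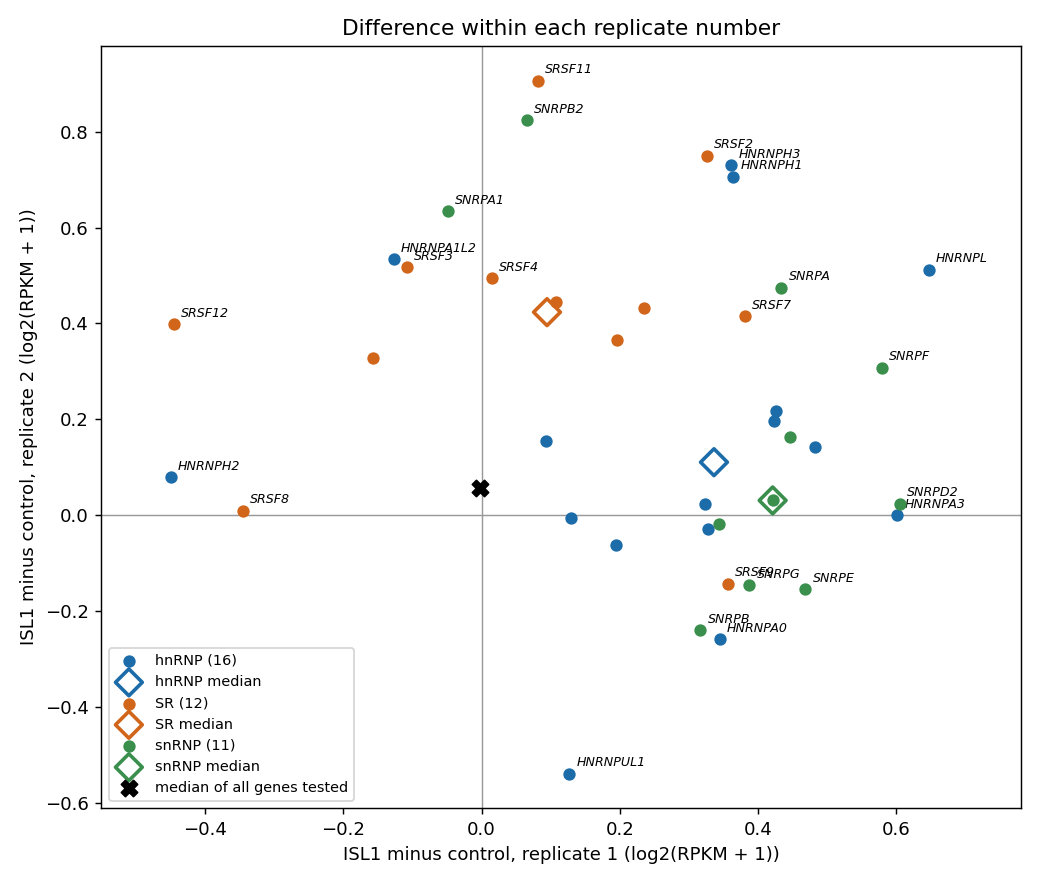
Each point is 1 member in all 4 tables; the axes give ISL1 minus control on the log2(RPKM + 1) scale in replicate number 1 (horizontal) and 2 (vertical), diamonds are group medians and the cross is the median of all 11085 genes tested. No member lies below zero on both axes, the snRNP and hnRNP medians lie to the right at 0.42 and 0.34, and the SR median lies upward at 0.42; with median-ratio scaling the SR medians were 0.28 and 0.21, and the hnRNP and snRNP medians of replicate 2 were below zero.

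Markers of several cell types also had different levels in the libraries of the second replicate number. The summed level of the 10 hepatocyte and hepatoma markers was 24156 RPKM in control 2 and 11084 in ISL1 2, with all 10 lower, and 21804 and 21518 in control 1 and ISL1 1. Of the heart markers, 7 of 7 were at 1 RPKM or more in ISL1 2 (sum 64.3 RPKM) and 1 of 7 in control 2 (sum 11.2), where MYH6, MYH7 and MYL7 had no read. The first tables list only 4 of these 7, of which 1 reached 1 RPKM in each library (sums over 4 genes 13.1 in control 1 and 5.70 in ISL1 1). Control 2 held 1032 RPKM of erythroid markers, with 5 of 6 at 1 RPKM or more, while none of 6 reached 1 RPKM in ISL1 2. Of these the first tables list HBB alone, below 1 RPKM in control 1 and with no read in ISL1 1. The 6 leukocyte markers summed to 117 RPKM in control 2 and 99.7 in ISL1 2, and the 4 of them in the first tables to 53.6 in control 1 and 50.3 in ISL1 1. The 6 stromal markers summed to 100.5 RPKM in control 2 and 171 in ISL1 2, and the 5 in the first tables to 141.6 and 103.2. The part of these differences in the members' values was not tested.

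The tables of the replicate numbers gave many members very different levels, so the differences given are those within a number. The pooled fit, the mean levels and the overlap of groups span both sets of tables. A pooled SE thus also holds the gap between the sets. Control 2 exceeded control 1 by more than 2-fold for 26 of the 39 members and by more than 10-fold for 14, and lay within 2-fold for 13. HNRNPL had the same recovered length of 2129 bases in both sets of tables, yet 305 reads in control 1 and 13163 in control 2. HNRNPU had 507 and 17321 reads over 6846 bases, and HNRNPK 868 and 20273 over 2995 bases. In contrast HNRNPA0 had 6531 and 7768 reads over 2983 bases and HNRNPA3 26808 and 24030 over 5808 bases. Reads and lengths are the smallest whole numbers that fit the values and may share a common factor, and the depth behind them in the second tables was chosen for its agreement in length with the first. The recovered length was the same in both sets for 23 members, of which 10 differed by more than 2-fold, the largest by 40.7-fold. All 13 members within 2-fold were among those 23.

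The number of curated RefSeq transcripts differed between these members. Of 5 members with 1 transcript, 4 lay within 2-fold (HNRNPA0, SRSF4, SRSF9 and SNRPA) and HNRNPUL2 differed by 3.72-fold. Of 9 members with 2 transcripts, 7 differed by more than 2-fold (median 8.10-fold), and of 25 with 3 or more, 18 did (median 8.14-fold). Over all genes tested, control 2 exceeded control 1 by more than 2-fold for 52.7%. The transcript numbers are those of the current RefSeq and may differ from those of the annotation that the authors used. Among the 13 members within 2-fold the medians were 0.36 and 0.00950 in the first and second number, and among the other 26 they were 0.28 and 0.27.

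**Figure D2:**
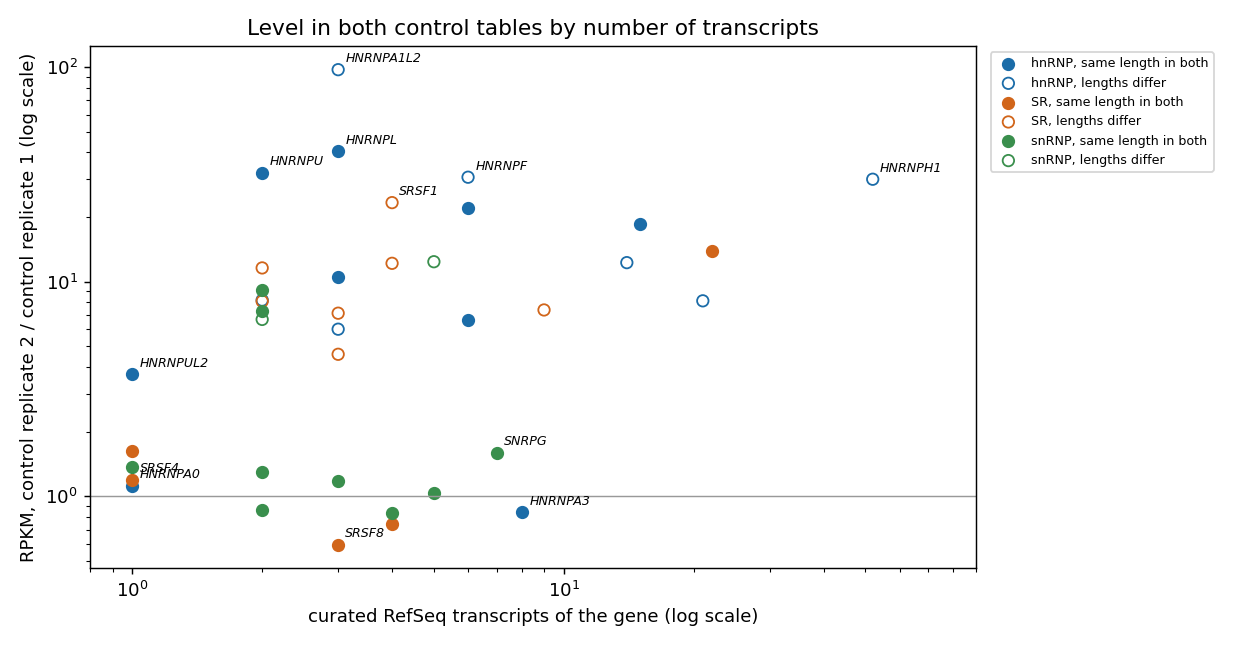
The horizontal axis is the number of curated RefSeq transcripts (log scale) and the vertical axis the RPKM of the second control divided by that of the first (log scale), for the 39 members in all 4 tables; filled points have the same recovered length in both sets of tables. Members with 1 transcript lie between 1.12 and 3.72, and the highest is HNRNPA1L2 at 97.2.

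Promoter windows of 300 bases (250 before and 50 after the annotated start, RefSeq, GRCh38.p14) were matched by symbol for 41 of the 48 members, with 62 windows in all. Shown are the member of each group whose smaller difference of both replicate numbers was largest (HNRNPL, SRSF7 and SNRPA), and SNRPD2, the snRNP gene with the largest difference in the first number. Where a gene has several annotated starts, the most upstream window is given. Capitals mark every match, on either strand, to TAAT (the homeodomain core), CCAAT (the box bound by NF-Y), CCGGAAG (a site of ETS factors) and TATAAA (the TATA box). TAAT can share end letters with CCAAT or TATAAA, but no matches overlap in the windows shown.
HNRNPL, chr19:38852298-38852597, minus strand: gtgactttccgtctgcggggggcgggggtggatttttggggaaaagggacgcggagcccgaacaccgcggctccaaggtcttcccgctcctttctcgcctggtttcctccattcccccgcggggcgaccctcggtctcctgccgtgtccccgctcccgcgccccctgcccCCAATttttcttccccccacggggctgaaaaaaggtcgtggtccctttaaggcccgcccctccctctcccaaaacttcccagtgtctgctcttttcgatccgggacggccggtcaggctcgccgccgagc
SRSF7, chr2:38751445-38751744, minus strand: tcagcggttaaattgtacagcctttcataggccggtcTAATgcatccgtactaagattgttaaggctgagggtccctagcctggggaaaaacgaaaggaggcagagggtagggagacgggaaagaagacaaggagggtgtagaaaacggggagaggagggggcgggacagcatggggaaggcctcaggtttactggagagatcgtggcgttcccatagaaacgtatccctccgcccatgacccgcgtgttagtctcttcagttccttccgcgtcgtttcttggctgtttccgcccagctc
SNRPA, chr19:40750953-40751252, plus strand: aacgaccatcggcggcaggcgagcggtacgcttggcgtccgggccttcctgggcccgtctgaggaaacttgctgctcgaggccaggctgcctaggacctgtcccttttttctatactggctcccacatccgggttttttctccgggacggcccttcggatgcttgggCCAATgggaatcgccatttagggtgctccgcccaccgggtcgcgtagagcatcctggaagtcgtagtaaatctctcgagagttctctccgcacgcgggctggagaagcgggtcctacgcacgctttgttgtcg
SNRPD2, chr19:45692267-45692566, minus strand: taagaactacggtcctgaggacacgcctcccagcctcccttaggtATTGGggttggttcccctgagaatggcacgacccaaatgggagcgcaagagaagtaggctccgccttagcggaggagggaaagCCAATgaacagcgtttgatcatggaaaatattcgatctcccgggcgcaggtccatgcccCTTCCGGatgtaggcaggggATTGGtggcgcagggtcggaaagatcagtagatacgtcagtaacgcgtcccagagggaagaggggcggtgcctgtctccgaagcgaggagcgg

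In these windows HNRNPL holds a CCAAT that begins 80 bases before the start and SNRPA one 83 bases before it. SNRPD2 holds CCAAT on either strand at 122, 205 and 43 bases before the start and a CCGGAAG on the reverse strand at 63. SRSF7 holds a TAAT 213 bases before its start. A match is a string of letters and not a measured binding site. CCAAT was in 62.1% of the 29 hnRNP windows, 21.4% of the 14 SR windows and 26.3% of the 19 snRNP windows, against 34.6% of all 35116 windows. CCGGAAG was in 47.4% of the snRNP windows (7 of 11 genes), 6.90% of the hnRNP and 14.3% of the SR windows, against 10.3% of all. TAAT was in 27.4% of the members' windows and 50.2% of all, and TATAAA in 11.3% and 11.5%. Median GC content was 62.5% in the members' windows and 58.7% in all. Windows of 1 gene can overlap, so they are not independent.

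Among the hnRNP genes, HNRNPL, which encodes a protein that binds CA-rich elements, had the largest difference in the first replicate number. Its level was 4.44 RPKM in control 1, 7.51 in ISL1 1, 180.4 in control 2 and 257.7 in ISL1 2. ISL1 was higher in both numbers, by 0.65 and 0.51, while control 2 lay far above ISL1 1, so the groups overlap. Pooled over both numbers, its log2 fold change came to 0.58 with SE 2.65 (limma, 2 libraries a group, adjusted p = 1.00). That SE holds the gap between the sets of tables. With the replicate block the SE was 0.34 (limma, unadjusted p = 0.125). The ratio of ISL1 to control reads, each divided by its depth, had log2 values of 0.76 (95% exact binomial interval 0.56 to 0.96) in the first number and 0.51 (0.48 to 0.55) in the second, intervals that cover counting error only and hold for 1 library against 1.

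HNRNPH1 and HNRNPH3 encode proteins that bind runs of G. HNRNPH1 was at 5.24 RPKM (control 1), 7.04 (ISL1 1), 157.3 (control 2) and 257.3 (ISL1 2), and below each pair of values is likewise control before ISL1. HNRNPH3 stood at 6.21 and 8.27, and at 50.6 and 84.5 RPKM. Both were higher with ISL1 in both numbers, by 0.36 and 0.71 for HNRNPH1 and by 0.36 and 0.73 for HNRNPH3. HNRNPH2, a close relative on the X chromosome, was at 1.90 and 1.13 RPKM in the first number and 15.6 and 16.6 in the second, with differences of -0.45 and 0.08. Of the 16 hnRNP genes tested, only HNRNPH2 and HNRNPA1L2 had a difference below zero in the first number. HNRNPF, of the same subfamily, was at 2.55 and 3.06, and at 78.1 and 74.8 RPKM (differences 0.19 and -0.06).

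The A and B proteins form the core of hnRNP particles. HNRNPA1 had the highest mean level over its libraries, at 60.3 and 64.4 RPKM in the first number and at 636.6 and 708.8 in the second. Its differences were 0.09 and 0.15. HNRNPA2B1 stood at 17.4 and 24.7, and at 213.3 and 235.4 RPKM, which is 0.48 and 0.14 higher with ISL1. HNRNPA3 was one of the few hnRNP transcripts with like levels in both sets of tables. It stood at 142.9 and 217.5 RPKM in the first number and at 120.7 and 120.8 in the second, with differences of 0.60 and 0.0008. HNRNPA0, which has a single coding exon, was at 67.8 and 86.4, and at 76.0 and 63.3 RPKM, and so lay higher with ISL1 in the first number (0.34) and lower in the second (-0.26). HNRNPAB was at 12.3 and 16.8, and at 81.4 and 93.4 RPKM (0.42 and 0.20).

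Near copies make some of these values uncertain. HNRNPA1L2, an intronless relative of HNRNPA1, stood at 0.340 and 0.228 RPKM in the first number (26 and 20 reads) and at 33.1 and 48.4 in the second (2523 and 3166 reads), with differences of -0.13 and 0.53. Of the 50-base stretches of its longest GENCODE transcript, 47.6% occur unchanged in transcripts of HNRNPA1. The pseudogenes HNRNPA1P10 (72.8% shared with HNRNPA1) and HNRNPA1P33 (13.5%) were in the first tables only, at 0.366 and 0.835 RPKM and at 0.971 and 0.397, from 8 to 21 reads. HNRNPA3P1, with 13.7% shared with HNRNPA3, had 1 read in each library. HNRNPH2 and HNRNPH1 share 0.0460% of such stretches and SRSF8 and SRSF2 none of 3979.

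HNRNPM stood at 13.4 and 18.3 RPKM in the first number and at 80.4 and 93.7 in the second, 0.43 and 0.22 higher with ISL1. HNRNPK, which binds C-rich RNA and DNA, differed by 0.13 and -0.00607, at 8.98 and 9.91 and at 197.5 and 196.7 RPKM. HNRNPU, a nuclear scaffold protein, was at 2.29 and 3.14, and at 73.8 and 72.3 RPKM (0.33 and -0.03). Its relative HNRNPUL1 had the lowest difference of all members in the second number, -0.54, at 103.3 RPKM in the control and 70.8 with ISL1, and stood at 5.55 and 6.15 RPKM in the first number (0.13). HNRNPUL2 stood at 9.92 and 12.7, and at 36.9 and 37.5 RPKM (0.32 and 0.02). By reads divided by depth, the 95% exact binomial intervals of the log2 ratio in the second number were -0.06 to 0.0022 for HNRNPU and -0.03 to 0.08 for HNRNPUL2. That of HNRNPUL1 was -0.58 to -0.51. On counting error, which is all these intervals cover, only HNRNPUL1 of this subfamily thus lay clear of zero there.

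HNRNPC, HNRNPD and HNRNPR were in the second tables only. HNRNPC, which binds uridine tracts, stood at 250.4 RPKM in the control and 300.5 with ISL1 (difference 0.26), HNRNPD, the AU-rich element binding protein AUF1, at 119.3 and 123.0 (0.04), and HNRNPR at 58.0 and 61.4 (0.08). All were higher with ISL1, by less than 1.5-fold. HNRNPU-AS1, an antisense RNA, was in the first tables only, at 2.65 and 2.89 RPKM; whether the counting used strand is not stated, so its reads and those of HNRNPU cannot be told apart with certainty. HNRNPUL2-BSCL2, a readthrough transcript that overlaps HNRNPUL2, was at 0.0232 and 0.0939 RPKM, from 3 and 14 reads. The older symbols HNRPDL and HNRPLL, now HNRNPDL and HNRNPLL, are not taken by the rule. HNRPDL stood at 1.98 and 1.77 RPKM in the first number and at 48.8 and 98.0 in the second, and HNRPLL at 0.294 and 0.406 and at 10.9 and 13.6.

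**Figure D3:**
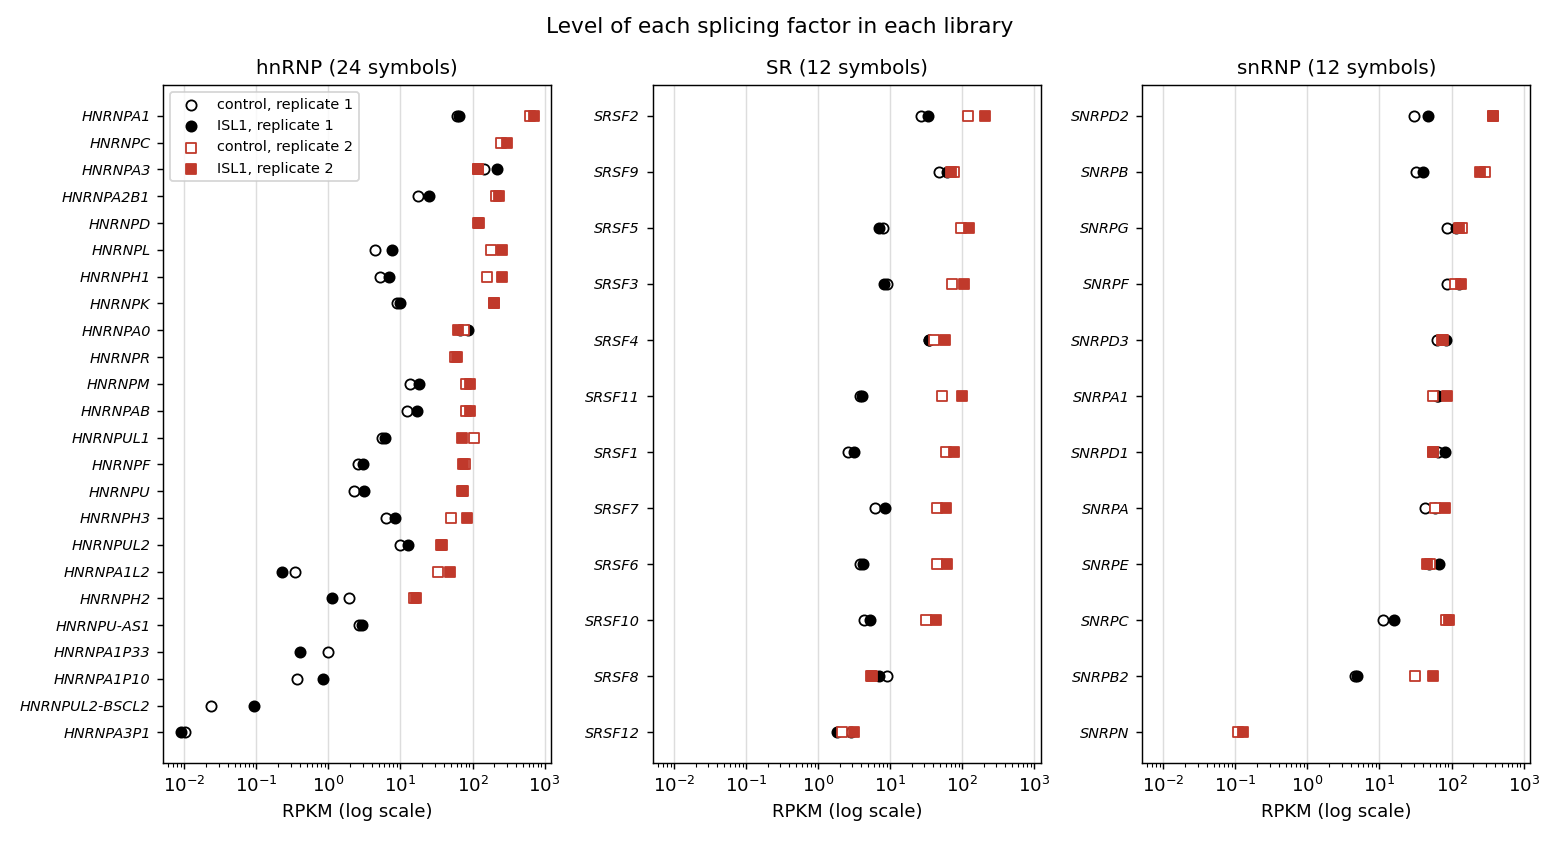
Each row is 1 member, ordered by mean level within its group, and the horizontal axis is RPKM on a log scale; open symbols are control, filled symbols ISL1, circles replicate number 1 and squares replicate number 2. HNRNPA3, HNRNPA0, SRSF4, SRSF8, SRSF9, SRSF12 and most Sm protein genes have circles and squares close together, whereas HNRNPL, HNRNPU and SRSF1 have them more than 20-fold apart in the controls.

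Of the SR genes, 11 of 12 stood higher with ISL1 in the second replicate number, against 54.6% of all genes, and 8 of 12 in the first, as deposited; with median-ratio scaling 10 of 12 did in each. SRSF2 (SC35), a splicing activator of nuclear speckles, had the highest mean level. Its level was 26.7 RPKM in control 1, 33.7 in ISL1 1, 122.4 in control 2 and 206.6 in ISL1 2, with differences of 0.33 and 0.75. SRSF11 had the largest difference of all members in the second number, 0.91, with 53.0 RPKM in the control and 100.2 with ISL1. In the first number it was at 3.81 and 4.09 RPKM (0.08). SRSF7, an SR protein with a zinc knuckle, differed alike in both numbers, by 0.38 and 0.42, at 6.30 and 8.50 and at 44.9 and 60.2 RPKM. Pooled log2 fold changes came to 0.40 with SE 1.45 for SRSF7 and 0.54 with SE 1.28 for SRSF2 (limma, 2 libraries a group, adjusted p = 1.00 for both).

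SRSF1 (ASF/SF2), the founding member of the family, stood at 2.61 and 3.13 RPKM in the first number and 60.9 and 78.6 in the second, with differences of 0.20 and 0.36. SRSF10, which acts as a repressor when it loses its phosphates, was at 4.33 and 5.27, and at 31.9 and 43.4 RPKM (0.23 and 0.43). SRSF6 was at 3.86 and 4.24, and at 44.8 and 61.3 (0.11 and 0.45). These lay higher with ISL1 in both numbers, by less than 1.5-fold. SRSF4 differed by 0.0152 in the first number and 0.49 in the second. Its levels were alike in both sets of tables, at 34.3 and 34.7 RPKM and at 41.1 and 58.4, from 2811 to 4354 reads over 2535 bases.

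SRSF3 and SRSF5 each lay below zero in the first number and above it in the second. SRSF3, the smallest SR protein and one that also takes part in mRNA export, was at 9.02 and 8.30 RPKM in the first number and at 73.1 and 105.1 in the second (-0.11 and 0.52). SRSF5 was at 8.07 and 7.13, and at 98.2 and 123.5 RPKM (-0.16 and 0.33). SRSF9 showed the reverse order, with 48.3 and 62.1 RPKM in the first number and 78.1 and 70.7 in the second (0.36 and -0.14), and was the only SR gene lower with ISL1 in the second number. The low members SRSF8 and SRSF12 stood lower with ISL1 in the first number, SRSF8 at 9.22 and 7.04 RPKM (-0.35) and SRSF12 at 2.88 and 1.85 (-0.44). In the second number SRSF8 was at 5.50 and 5.54 (0.00950) and SRSF12 at 2.14 and 3.14 RPKM (0.40). The pooled fold changes of all SR genes had limma adjusted p = 1.00.

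The Sm proteins form the ring common to the U1, U2, U4 and U5 snRNPs. Their genes stood higher with ISL1 in the first replicate number and on either side of zero in the second. SNRPF had the smallest p of all members in the pooled fit (unadjusted p = 0.198) with 85.2 RPKM in control 1, 127.9 in ISL1 1, 110.2 in control 2 and 136.6 in ISL1 2. In limma's fit with the replicate block the smallest was that of HNRNPL (unadjusted p = 0.125), and SNRPF had 0.219. Both ISL1 libraries of SNRPF lay above both controls, with differences of 0.58 and 0.31. The log2 fold change over both numbers came to 0.44 with SE 0.28 (limma, 2 libraries a group, adjusted p = 1.00). SNRPD3 had the same order, at 62.5 and 84.0 and at 73.9 and 75.5 RPKM, with differences of 0.42 and 0.03. SNRPF and SNRPD3 were the only 2 members of 39 with both ISL1 libraries above both controls (5.52% of all genes), and no member had both below (5.08%). For 26 of the 39, control 2 lay more than 2-fold above control 1, a gap wider than any of their differences within a number. Their groups overlap because of that gap, so the count says little about these members.

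SNRPD2 had the largest difference of the group in the first number, 0.61, at 30.3 and 46.6 RPKM, and was at 375.3 and 381.7 in the second (0.02). SNRPD1 stood at 64.5 and 82.1, and at 55.6 and 54.8 RPKM (0.34 and -0.02). SNRPE was at 48.8 and 67.9 in the first number and at 50.5 and 45.3 in the second, and SNRPG at 86.7 and 113.8, and at 138.8 and 125.4 RPKM. Both were thus higher with ISL1 in the first number (0.47 and 0.39) and lower in the second (-0.15 and -0.15). SNRPB, which encodes the B and B' proteins, followed the same pattern with 31.8 and 39.9, and 291.8 and 246.9 RPKM (0.32 and -0.24). SNRPN, an imprinted gene whose protein replaces B' in brain, was in the second tables only, at 0.108 and 0.126 RPKM from 3 reads in each library, near the limit that a count of 0 allows.

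The other members of the group are proteins of the U1 or the U2 particle, and all 4 stood higher with ISL1 in the second number. SNRPA, the A protein of U1, was higher with ISL1 in both numbers by like amounts, 0.43 and 0.47, at 43.0 and 58.4 RPKM and at 59.1 and 82.4. Its pooled log2 fold change came to 0.45 with SE 0.36 (limma, adjusted p = 1.00), and control 2 lay just above ISL1 1. SNRPC, the C protein of U1 that contacts the 5' splice site, was at 11.4 and 15.9, and at 82.9 and 92.9 RPKM (0.45 and 0.16). SNRPA1 and SNRPB2 encode the A' and B'' proteins of the U2 snRNP, which bind its RNA together. SNRPA1 was at 65.6 and 63.4 RPKM in the first number and at 54.7 and 85.6 in the second (-0.05 and 0.63), and SNRPB2 at 4.59 and 4.85 and at 30.6 and 55.0 (0.07 and 0.82). Both partners thus stood over 1.5-fold higher in the second number and near zero in the first.

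Other snRNP proteins carry SNRNP symbols, which the naming rule does not take; this list was added after the tables were seen. All 7 stood higher with ISL1 in the first number and 4 of 7 in the second, with medians of 0.33 and 0.21, and none passed limma's test. SNRNP70, the U1-70K protein, was at 105.4 and 135.6, and at 125.9 and 174.3 RPKM (0.36 and 0.47). SNRNP25, a protein of the minor spliceosome, was at 10.9 and 27.5, and at 18.9 and 22.0 RPKM (1.26 and 0.21). SNRNP200, the U5 helicase Brr2, named after its values were seen, was at 60.6 and 75.1, and at 96.3 and 57.3 RPKM (0.31 and -0.74).

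Of the other splicing genes, 118 in 10 lists were tested, and none passed limma's test in either direction. LSM proteins are relatives of the Sm proteins, and some of them bind U6. Their medians were 0.49 in the first number, where 8 of 9 were higher, and 0.04 in the second (-0.15 with median-ratio scaling). LSM3 was at 69.7 and 120.2, and at 111.1 and 94.7 RPKM, and LSM7 at 57.4 and 80.9, and at 101.0 and 107.5. The SR protein kinases, which phosphorylate the RS domains, had a median of 0.02 in the first number and 0.90 in the second, where 7 of 8 were higher. CLK4 was at 7.35 and 5.89 RPKM in the first number and 3.51 and 10.6 in the second, and PRPF4B at 18.6 and 20.5, and at 10.3 and 19.5. CLK1, named after its values were seen, was at 13.7 and 9.48, and at 20.6 and 120.1 RPKM (-0.49 and 2.49).

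SR-related proteins had medians of 0.20 and 0.82; in each number 5 of 7 were higher. Among them TRA2A, a partner of SR proteins at exonic enhancers, was higher in both, at 33.8 and 41.7 and at 26.4 and 47.4 RPKM, and so was SRRM1, a speckle protein, at 30.9 and 35.6 and at 37.6 and 68.1. The exon junction complex, which SR proteins accompany on spliced mRNA, had medians of 0.15 and 0.49. EIF4A3, its anchoring helicase, was at 71.3 and 86.6 and at 64.7 and 85.7 RPKM, and MAGOH at 49.7 and 52.6 and at 35.6 and 57.1. In the first number medians lay between 0.02 and 0.20 for all of these lists except the LSM proteins.

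U2 snRNP proteins and U2AF had medians of 0.12 and 0.09 (-0.12 in the second number with median-ratio scaling) and the tri-snRNP and Prp19 complex 0.11 and 0.27. SF3B5 was at 29.7 and 56.1 and at 65.1 and 85.1 RPKM, SF3B14, the branch-point binding p14, at 96.4 and 85.1 and at 109.5 and 183.2, PRPF3 at 16.8 and 21.8 and at 14.4 and 26.7, and PRPF39 at 22.9 and 23.3 and at 13.7 and 51.2. The SMN complex and its partners, which load the Sm ring, had medians of 0.15 and -0.10, the only list of the 10 apart from hnRNP proteins with other symbols (0.09 and -0.000888) whose median was below zero in the second number as deposited. STRAP was at 135.4 and 137.7 and at 96.2 and 137.5 RPKM and DDX20 (Gemin3) at 8.93 and 8.79 and at 5.05 and 6.59. PCBP1, hnRNP E1, was at 124.9 and 135.2 and at 119.2 and 152.1. Tissue regulators of splicing had medians of 0.05 and 0.38 over 18 tested of 34, and nonsense-mediated decay factors 0.05 and 0.25 over 10. ELAVL1 (HuR) stood at 16.7 and 25.3 and at 19.9 and 24.5 RPKM, RBM25 at 38.0 and 43.7 and at 27.0 and 44.8, UPF1, the helicase of nonsense-mediated decay, at 45.3 and 56.4 and at 46.5 and 49.2, and SMG9 at 10.8 and 12.6 and at 10.7 and 14.3.

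**Figure D4:**
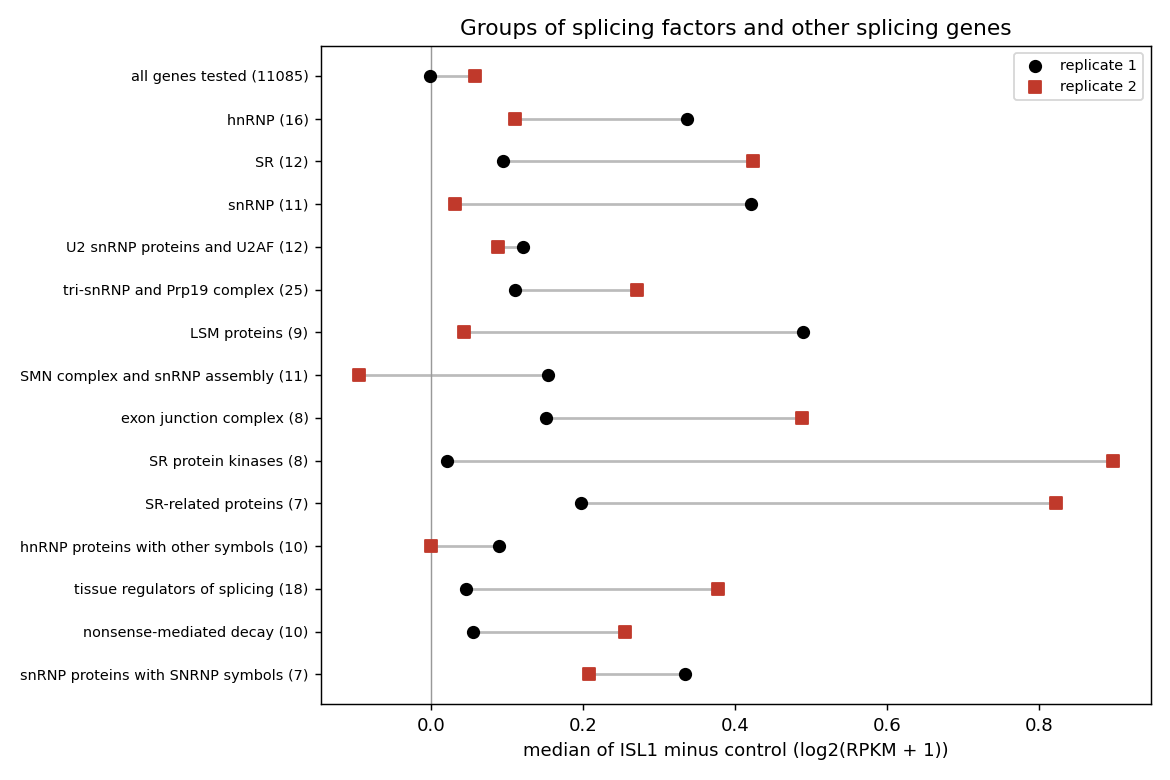
Each row is a group or list with its number of tested genes, and the horizontal axis is the median of ISL1 minus control on the log2(RPKM + 1) scale; circles are replicate number 1 and squares replicate number 2. The snRNP genes and LSM proteins have their higher median in replicate 1 (0.42 and 0.49). The SR genes, SR protein kinases and SR-related proteins have theirs in replicate 2 (0.42, 0.90 and 0.82). Median-ratio scaling reversed that order for the SR genes (0.28 and 0.21), but not relative to the median of all genes (0.19 and 0.33).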

How the data were processed

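Gene expression was measured by RNA sequencing of total RNA in 4 libraries, 2 per group. The authors deposited RPKM values by gene symbol, 1 table for each library. Per the submitters' processing notes, CASAVA 1.4, BWA and hg19 were used; the sources used here do not give the counting program or its annotation. The tables of the first replicate number listed 16640 symbols and those of the second 17197. The members, lists and tests were chosen with earlier results of these data known.

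Values were joined by symbol. Depth was the common divisor of the inverse low values, and reads and lengths of members were the smallest whole numbers matching both libraries of a number (relative tolerance 1e-08). For the second set, either of 2 depths was possible, and the one with more genes of equal length in both sets of tables was taken (65.2% of 400 genes, against 17.5% of 399 at the lower depth), so equal lengths are partly what chose the depth. limma 3.58.1 in R 4.3.3 (lmFit, eBayes with trend) was run on log2(RPKM + 1) for genes listed in every table that reached 1 RPKM in 2 or more of them, two-sided, with Benjamini-Hochberg adjustment over all 11085 genes; the script was tested on simulated data. A count model was not run, since a common factor of the reads is unknown. Every member is accounted for; values in each library were due, per group, for the 8 of highest mean, the 4 per direction with the largest difference shared by both numbers and the 3 per direction with the largest difference in a number, and up to 2 genes of each other list with the smallest limma p are named. Alternatives were a pseudocount of 0.1, no filter, a minimum of 5 RPKM, median-ratio scaling, the replicate block, older symbols and leaving out each library. Scripts ran under Python 3.11.15 with pandas 2.3.3, NumPy 2.4.6, matplotlib 3.10.9 and SciPy 1.17.1.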

Additional observations from a re-analysis of the deposited data

How the results depend on the processing

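No gene and no member passed limma's threshold with the other pseudocount, the other filters, median-ratio scaling or the block (0 in each), or without any 1 library (0 to 0); joining older symbols was not fitted again. The fit with the replicate block gave 0 genes and 0 members as well, with 260 genes at an unadjusted p under 0.05 and none of the members. Libraries with the same number deviated together from their group means (r = 0.882, across genes), but with 2 pairs that value is the same for both by construction. The labels tie such libraries by number only. Their tables share a format, a list of symbols and, for many members, levels far from those of the other set. Median-ratio scaling moved the hnRNP median to 0.54 in the first replicate number and to -0.0932 in the second, and put 2 members lower in both numbers, where there had been 0; it left 17 members higher in both in place of 22. That scaling also moved the snRNP medians to 0.62 and -0.18, a change of sign in the second number. The SR medians moved to 0.28 and 0.21, which reverses their order. Relative to the median of all genes, which the scaling moved too, the SR medians kept their order. They were 0.10 and 0.37 as deposited and 0.19 and 0.33 with that scaling. Pooled fold changes of named members changed sign for 25 of 35 without the first control and 21 without the second ISL1 library. They did so for 7 without the first ISL1 library, 2 without the second control and 0 under the other refitted settings. A fit without 1 library sets 1 library, assumed to vary like the others, against 2. Having no block, it also mixes the sets of tables unequally. HNRNPL, for example, came to -1.95 without the first control and 3.11 without the second. Signs in these fits thus largely follow the gap between the sets and cannot show how stable the ISL1 difference is. Pooled standard errors of members reached 2.70 (HNRNPA1L2, 0.37 with the replicate block), and depth limits HNRNPA1L2 in the first tables (26 reads in the control).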
